A study of Rattus norvegicus with 17 samples.

Results

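The genes of mitosis and cytokinesis were examined in the meibomian gland (MG) of rats, as 1 group of 46 genes listed by their role in cell division. Of these, 45 were among the 17251 genes with a deposited value in each rat, and all 45 were expressed highly enough to be tested. The remaining member, Ccnb2, was not analysed here. The MG is the lipid-secreting gland of the eyelid margin, whose acinar cells, the meibocytes, fill with lipid and are shed whole into the duct.

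RNA was sequenced from the MG of 17 female Sprague-Dawley rats aged 10 to 12 weeks, with 1 library per rat. The 4 groups were 4 wild-type rats without irradiation (Control WT), 5 P1.hMR rats without irradiation (Control P1.hMR), 3 irradiated wild-type rats (UVB WT) and 5 irradiated P1.hMR rats (UVB P1.hMR). P1.hMR rats carry the human mineralocorticoid receptor (MR) gene, NR3C2, under its proximal P1 promoter, so the transgene is not limited to the MG or to 1 cell type of it. In the UVB groups the shaved upper eyelids were exposed to UVB on 5 days, an experimental model of MG dysfunction and ocular rosacea, while the control rats were kept without the model.

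The labels were checked first. NR3C2 was listed at 0 TPM in all 7 WT rats and lay between 5.31 and 9.31 TPM in the 10 P1.hMR rats, although reads of NR3C2 and rat Nr3c2 could have been split between the genes by the quantification. The 9 meibocyte markers, among them Awat2 and Elovl3 of wax ester and fatty acid synthesis, were all listed and summed to between 15801 and 24323 TPM. TPM gives each transcript's share of a library after correction for its length, so levels can be compared between genes. The paper gives a range of mapped reads over its libraries, but not the depth of each library. Between 12372 and 12737 genes per rat reached 1 TPM.

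Cells enter mitosis when cyclin B and its kinase Cdk1 become active, and Polo-like and Aurora kinases then build the spindle. Kinetochores tie chromosomes to spindle microtubules, the spindle checkpoint holds anaphase until all are attached, and the anaphase-promoting complex with Cdc20 then releases the sister chromatids. Most of these genes are transcribed in G2 and M phase, under the MuvB complex with B-Myb and FoxM1, which acts through CHR promoter elements (cell cycle genes homology region) and neighbouring CCAAT boxes bound by NF-Y. In the MG, dividing cells lie in the basal layer of the acini and of the duct.

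Promoter sequences are shown because the 45 members were all higher after UVB, and these are the elements that such genes are known to share. RefSeq promoter windows of the rat build GRCr8, 250 bases before and 50 bases after each annotated gene start, matched 38 of the 45 members by symbol, spread over 16 chromosomes. No window was matched for Ccna2, Pbk, Aurkb, Incenp, Ube2c, Tpx2 and Racgap1. The expression values rest on the build rn7, so no coordinate was carried from one build to the other. The 160 bases before the start are printed for 9 members on their own strand, 5′ to 3′, with capitals marking each match to CHR, CCAAT or E2F on either strand. They are Mki67 and the first member of each role group with a matched window. Matches outside the printed bases, such as CHR at 7 bases after the start in Plk1 and CCAAT at -213 in Birc5, are counted below but not shown.
Cdk1 (chr20:19265133-19265292, + strand): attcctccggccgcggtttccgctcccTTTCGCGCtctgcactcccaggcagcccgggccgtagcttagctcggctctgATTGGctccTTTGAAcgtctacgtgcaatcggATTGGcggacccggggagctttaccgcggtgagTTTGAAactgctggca
Plk1 (chr1:186147498-186147657, + strand): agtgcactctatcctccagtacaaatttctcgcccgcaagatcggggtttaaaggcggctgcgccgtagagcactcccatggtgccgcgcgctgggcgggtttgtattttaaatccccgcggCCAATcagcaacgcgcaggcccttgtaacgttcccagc
Birc5 (chr10:103571986-103572145, + strand): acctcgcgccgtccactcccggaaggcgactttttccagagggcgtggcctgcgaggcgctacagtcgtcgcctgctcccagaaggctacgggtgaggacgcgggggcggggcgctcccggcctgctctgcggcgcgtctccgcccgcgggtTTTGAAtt
Bub1 (chr3:135504922-135505081, - strand): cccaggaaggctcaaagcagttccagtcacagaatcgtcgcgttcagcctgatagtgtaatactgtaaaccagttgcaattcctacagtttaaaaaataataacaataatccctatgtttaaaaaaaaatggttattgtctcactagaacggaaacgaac
Cdc20 (chr5:137255800-137255959, - strand): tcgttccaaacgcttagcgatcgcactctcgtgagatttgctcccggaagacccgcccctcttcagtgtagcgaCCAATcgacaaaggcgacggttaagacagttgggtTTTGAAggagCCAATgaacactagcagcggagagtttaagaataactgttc
Kif11 (chr1:244536707-244536866, + strand): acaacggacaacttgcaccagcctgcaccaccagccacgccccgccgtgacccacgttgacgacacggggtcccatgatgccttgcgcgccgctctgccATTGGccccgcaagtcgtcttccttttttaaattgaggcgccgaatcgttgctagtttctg
Prc1 (chr1:143659321-143659480, + strand): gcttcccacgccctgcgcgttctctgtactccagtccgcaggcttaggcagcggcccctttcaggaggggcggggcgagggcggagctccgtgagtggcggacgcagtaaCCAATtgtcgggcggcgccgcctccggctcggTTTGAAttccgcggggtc
Top2a (chr10:84473094-84473253, - strand): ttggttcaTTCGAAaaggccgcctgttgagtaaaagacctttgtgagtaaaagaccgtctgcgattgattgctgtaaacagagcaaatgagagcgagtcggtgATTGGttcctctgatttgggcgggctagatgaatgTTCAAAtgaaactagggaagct
Mki67 (chr1:199952594-199952753, - strand): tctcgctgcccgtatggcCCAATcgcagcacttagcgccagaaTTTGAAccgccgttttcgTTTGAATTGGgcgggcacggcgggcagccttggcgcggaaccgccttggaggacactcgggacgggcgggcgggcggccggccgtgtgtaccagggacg

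The members' windows held CHR and CCAAT matches more often than promoters at large. CHR was searched as TTTGAA and in its rarer form as TTCGAA, and a match lay in 26 of 38 windows (68.4%), against 19.7% of all 33469 promoter windows of the same length and 13.5% of the 9816 windows matched to tested genes. CCAAT was present in 76.3% of the members' windows, against 37.5% of all windows and 37.6% of those of tested genes. Both motifs were present in 22 windows (57.9%), against 7.95% and 5.47%. The E2F motif (TTT, then C or G at each of the next 2 positions, then CGC) was found in 1 window, that of Cdk1, and in 2.14% of all windows and 3.9% of those of tested genes, so it was no more common in the members (2.63%). These shares are descriptions of letters in a window and were not tested. The palindrome TTCGAA was counted once per place, and CHR and CCAAT matches overlapped at 2 places, 1 of them in Mki67 (TTTGAATTGG).

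With position -1 for the base just before the start, Cdk1 held CHR at -72 and -16, Cdc20 at -51, Prc1 at -18 and Mki67 at -117 and -99, each given by the leftmost base. The centres of the 33 CHR matches had a median of -28 and those of the 64 CCAAT matches a median of -94.5. The windows of Bub1, Aurka, Melk, Kif2c and Ncaph held neither motif, which says only that these letters are not in these windows. Members with a CHR match had a median log2 fold change after UVB of 0.52 in WT rats and 0.44 in P1.hMR, and the 12 without one had 0.68 and 0.57. No larger UVB response was thus seen with the motif.

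**Figure D1:**
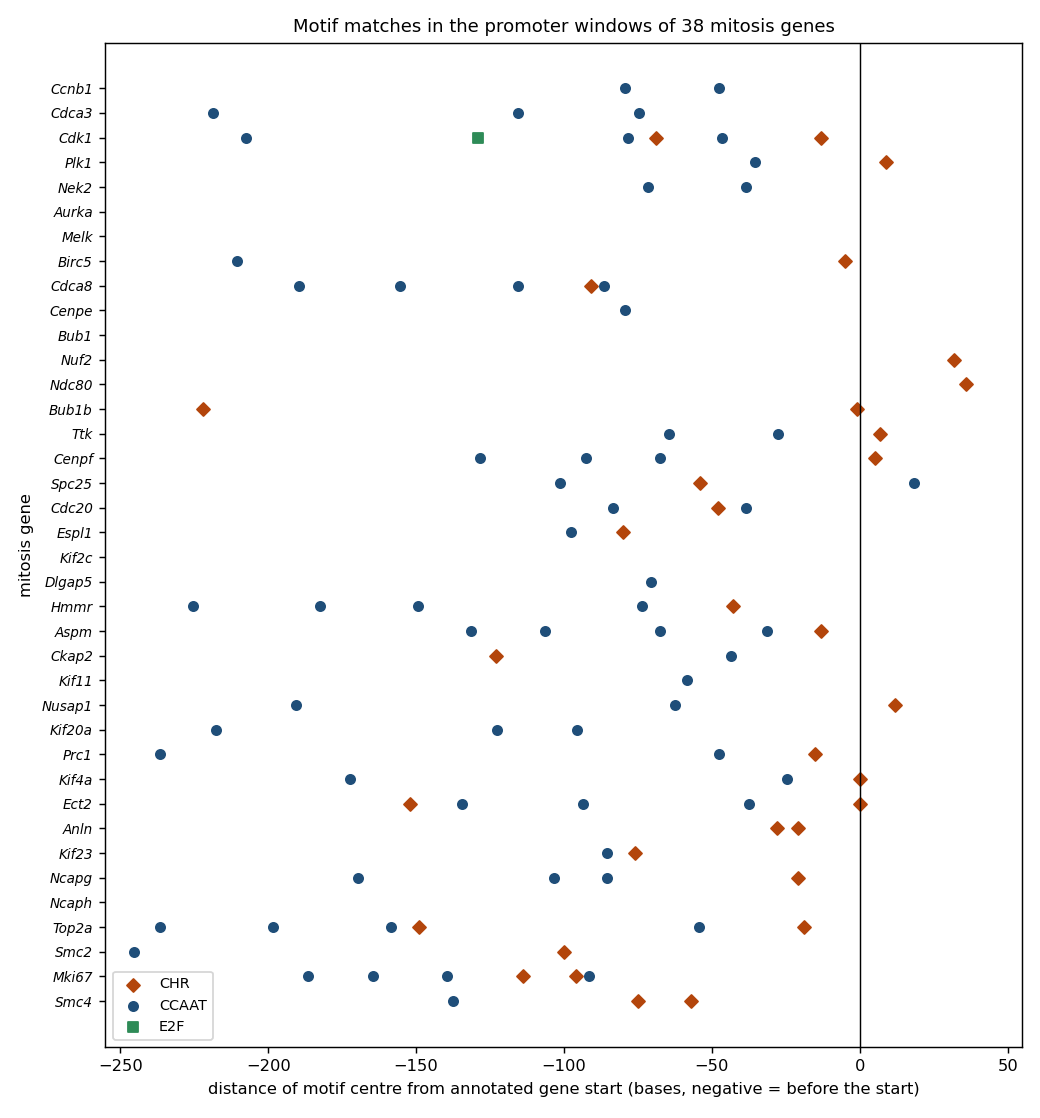
Each row is 1 of the 38 mitosis genes with a RefSeq promoter window, and each symbol the centre of a CHR (diamond), CCAAT (circle) or E2F (square) match, plotted by its distance in bases from the annotated gene start. CHR matches lie closest to the start, with a median of -28, and CCAAT matches farther before it, with a median of -94.5.

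The 45 genes were expressed at low to moderate levels, and Ube2c, the ubiquitin-conjugating enzyme of the anaphase-promoting complex, was the highest. Averaged over the 17 rats it was at 42.1 TPM, followed by Cdc20 at 29.0, Cdk1 at 26.9, the condensin subunit Smc4 at 25.2 and cyclin B1 (Ccnb1) at 24.3 TPM. The lowest were the kinetochore genes Cenpe (4.47 TPM) and Ndc80 (4.10 TPM) and the condensin subunit Ncapg (4.10 TPM). Summed over the members, expression was 478 ± 46.01 TPM (SD, n = 4) in Control WT and 510 ± 53.4 TPM (SD, n = 5) in Control P1.hMR rats. After UVB the sums were 760 ± 153 TPM (SD, n = 3) in WT rats and 755 ± 110 TPM (SD, n = 5) in P1.hMR, and in neither genotype did a UVB rat reach down to a control rat. The spread also differed, since the median over members of the coefficient of variation was 10.97% in Control WT and 21.9% in UVB WT rats. In P1.hMR rats the figures were closer, 13.1% in controls and 15.9% after UVB. In bulk tissue, fewer cells of a type and less RNA per cell cannot be told apart, and the same holds for more cells and more RNA per cell.

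The rats differed in level in much the same way for most members. The mean of log2(TPM + 1) over the 45 genes was 4.23 in UVB WT rat 1, against 3.76 and 3.79 in the other UVB WT rats, and rat 1 was the highest of its group for 44 of 45 members, with Aurka the exception. UVB P1.hMR rat 2, with a mean of 3.63, was the lowest of its group for 40 members, and rat 4, with 4.13, the highest for 36. Among controls, Control P1.hMR rat 2 was the lowest for 40 members and Control WT rat 3 the highest for 38. The 45 values from 1 rat are therefore not independent measurements of the UVB response.

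**Figure D2:**
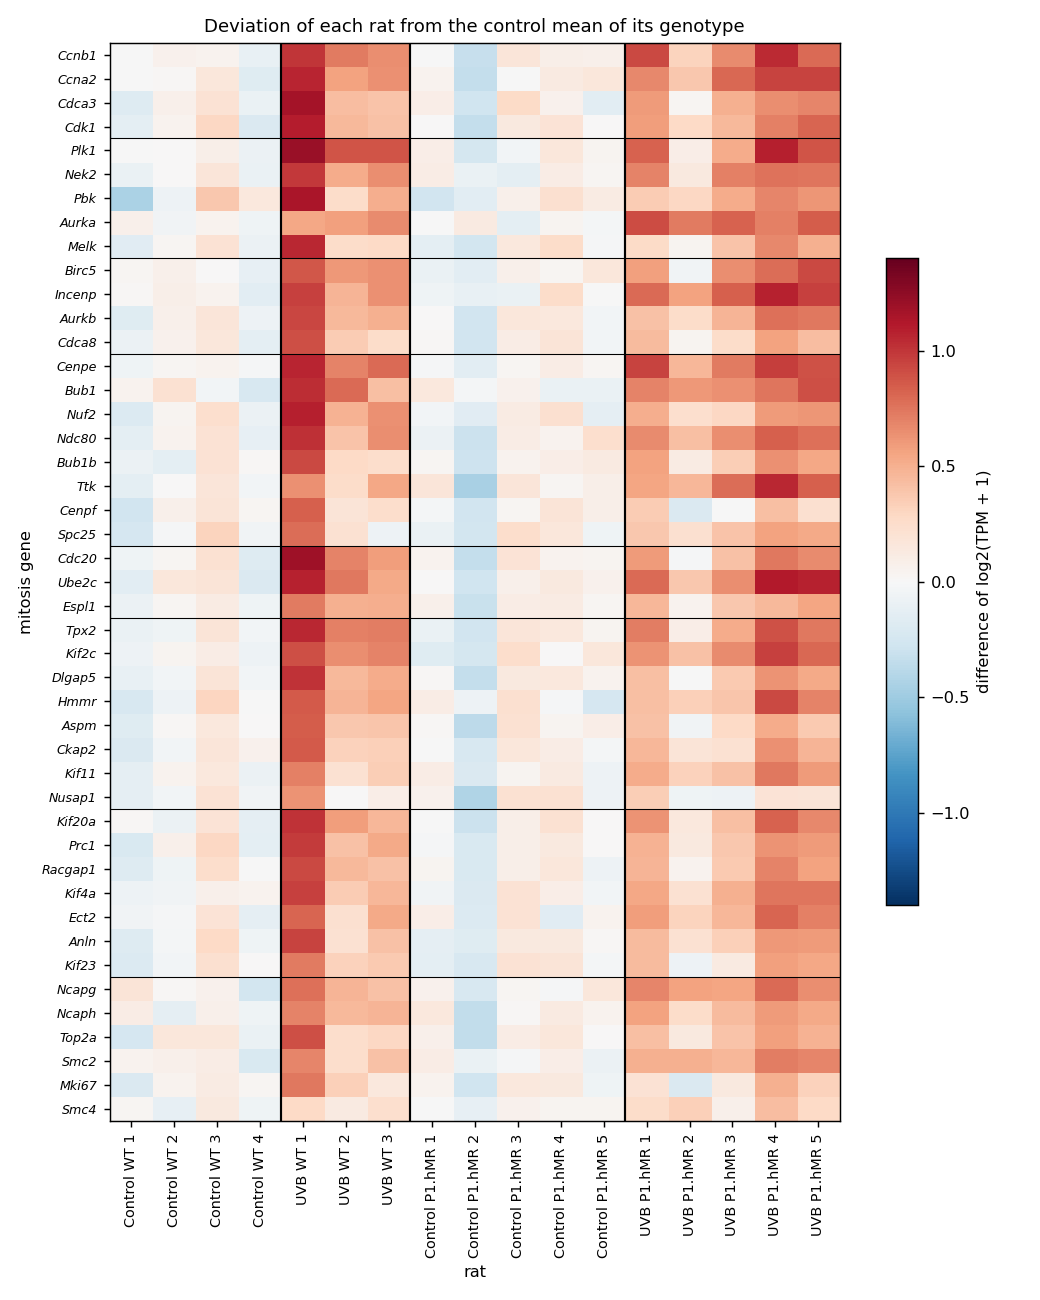
Each column is a rat and each row a mitosis gene, ordered by role group (horizontal lines), and the colour gives the difference of log2(TPM + 1) from the control mean of the rat's own genotype. UVB WT rat 1 stands above the other UVB WT rats in nearly every row, Control P1.hMR rat 2 and UVB P1.hMR rat 2 lie below their groups, and Aurka is even across the UVB rats of each genotype.

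The first comparison asked whether UVB changed these genes in WT rats. All 45 members had a higher mean after UVB, as had 51.2% of the 13105 genes tested. Of the 45, 33 were called higher and 0 lower, beside 3.92% and 3.98% of all genes. Here and below, a call needs a limma p under 0.05 after Benjamini-Hochberg adjustment over all tested genes, written as adjusted p, and a log2 fold change of 0.5 or more in either direction. Fold changes are on the log2(TPM + 1) scale, which understates the change of low genes. The median log2 fold change of the members was 0.60, beside 0.01 for all genes tested, and it ran from 0.21 for Smc4 to 0.99 for Plk1. In 40 members every UVB WT rat was above every Control WT rat, as for 14% of all genes, and the 5 with overlapping groups were Pbk, Spc25, Nusap1, Anln and Smc4. The number called rested in part on UVB WT rat 1, without which 18 members were called, beside 436 of 13085 genes called higher, and the median became 0.45. The 15 calls lost without that rat were those of Cdk1, Cdca3, Pbk, Aurkb, Cdca8, Dlgap5, Aspm, Ckap2, Prc1, Kif4a, Racgap1, Ect2, Anln, Ncapg and Ncaph, whose log2 fold changes then lay between 0.31 and 0.49. Leaving out 1 of the other WT rats gained a call for 8 members (Top2a, Bub1b, Ttk, Kif23, Kif11, Melk, Smc2 and Mki67). Some of those 15 calls were also lost without Control WT rat 1 (Pbk, Cdca8, Aspm, Ckap2 and Anln) or rat 2 (Pbk, Ckap2 and Ncaph). The same held without Control WT rat 4 (Cdca8, Ect2 and Ncapg). All 4 groups were in 1 fit and shared 1 estimate of the spread. With only the WT groups in the fit, Cdk1, Cdca3, Pbk, Cdca8, Ckap2, Ect2 and Anln were not called, at unchanged fold changes. In that fit 402 of 13105 genes were called higher, beside 514 with all groups.

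The same comparison in P1.hMR rats gave 23 of 45 members called higher and 0 lower, beside 5.05% and 5.71% of all genes. Its fold changes share no animal with the first comparison, but its p-values rest on the same estimate of the spread. All 45 means were again higher after UVB, as were 47.1% of those of all genes. The median log2 fold change was 0.52, beside -0.02 for all genes, and ran from 0.12 for Nusap1 to 0.84 for Incenp. In 26 members every UVB P1.hMR rat lay above every Control P1.hMR rat, as for 13.2% of all genes. By the adjusted p alone, 39 members passed in each genotype, beside 11.2% of all genes in WT rats and 18.5% in P1.hMR, so that the fold threshold made most of the difference between 33 and 23. With each rat left out in turn, between 18 members (without Control P1.hMR rat 2) and 31 members (without UVB P1.hMR rat 2) were called. Leaving out 1 rat of this genotype lost the call of 7 members (Cdk1, Aurkb, Kif11, Kif20a, Kif4a, Hmmr and Birc5, then at 0.46 to 0.50) and gained it for 8 (Cdca3, Ncaph, Cdc20, Pbk, Nuf2, Prc1, Bub1b and Racgap1).

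The members called higher in both genotypes were 20, beside 2.98% of all genes. A further 13 were called in WT alone and 3 in P1.hMR alone (Ttk, Kif11 and Smc2), and 9 in neither (Melk, Bub1b, Cenpf, Spc25, Nusap1, Kif23, Top2a, Mki67 and Smc4). Of the 13, 12 had an adjusted p under 0.05 in P1.hMR rats with a fold change under the threshold, and all 3 called in P1.hMR alone had an adjusted p under 0.05 in WT rats in limma. The order of the members was similar in the 2 genotypes, with 7 of the 10 largest and 5 of the 10 smallest responses shared. Across the 45 genes, which are not independent replicates, Spearman's rho between the 2 responses was 0.667 and Pearson's r 0.668.

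**Figure D3:**
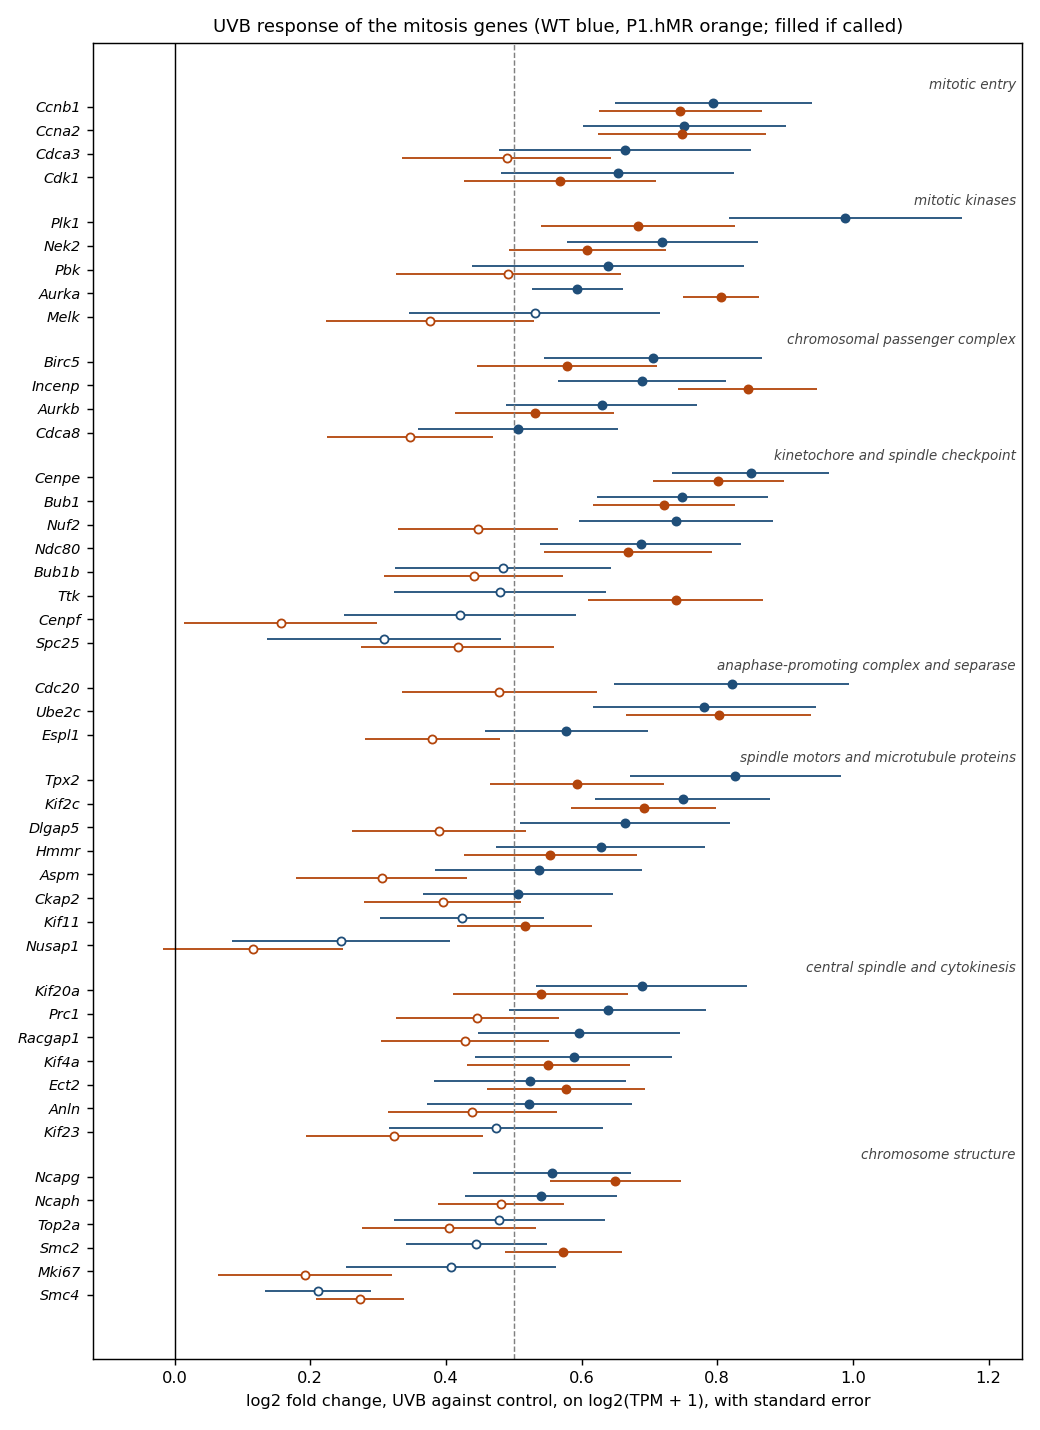
Points show the log2 fold change of each mitosis gene, UVB against control, with its standard error in WT (blue, 3 against 4 rats) and P1.hMR rats (orange, 5 against 5 rats), filled where the gene was called and grouped by role; the dashed line marks the threshold of 0.5. All 90 points lie above 0, Plk1 in WT is farthest to the right at 0.99, and Nusap1 in P1.hMR is nearest to 0 at 0.12.

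Of the 4 genes of mitotic entry, 4 were called higher in WT rats and 3 in P1.hMR, where Cdca3, a protein that triggers mitotic entry, was at 0.49 with overlapping groups. Cdk1, the kinase that drives entry into mitosis, was at 17.7, 20.2, 24.1 and 16.8 TPM in Control WT rats and at 43.0, 27.1 and 26.2 TPM in UVB WT rats. In P1.hMR rats Cdk1 was at 22.4, 17.5, 24.8, 25.6 and 22.4 TPM in controls and at 34.1, 27.3, 31.0, 37.1 and 40.0 TPM after UVB. The groups did not overlap in either genotype, and the rise in WT was carried most by rat 1. For Cdk1 the log2 fold change was 0.65 (standard error 0.17, limma adjusted p = 0.0132) in WT rats and 0.57 (standard error 0.14, adjusted p = 0.00483) in P1.hMR. Without UVB WT rat 1 the WT value was 0.43, and without Control P1.hMR rat 2 the P1.hMR value was 0.48, and neither was then called. With only the WT groups in the fit, Cdk1 was not called in WT either, at the same fold change of 0.65. The cyclins had log2 fold changes of 0.79 and 0.75 for Ccnb1 and of 0.75 and 0.75 for Ccna2 in WT and P1.hMR rats.

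Of the 5 mitotic kinases, 4 were called higher in WT rats and 3 in P1.hMR. Plk1, the Polo-like kinase that acts from mitotic entry to cytokinesis, had the largest log2(TPM + 1) response of all members when both genotypes were averaged, though not the largest ratio of mean TPM, which was that of Cenpe. It was at 9.96, 10.0, 10.6 and 9.36 TPM in Control WT rats and at 24.4, 19.2 and 19.1 TPM in UVB WT rats. In P1.hMR rats it was at 12.3, 9.49, 11.2, 12.9 and 11.8 TPM in controls and at 21.2, 12.3, 16.9, 25.6 and 22.0 TPM after UVB. The WT groups stood well apart, while UVB P1.hMR rat 2 fell among the controls. The mean TPM was 2.09 times as high after UVB in WT rats and 1.70 times in P1.hMR, with log2 fold changes of 0.99 (standard error 0.17, limma adjusted p = 0.00116) and 0.68 (standard error 0.14, adjusted p = 0.00135).

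Aurka, the Aurora kinase of the spindle poles, was the most even of the kinases between rats. Its values were 13.7, 12.5, 13.5 and 12.4 TPM in Control WT and 19.4, 19.9 and 21.2 TPM in UVB WT rats. In P1.hMR rats they were 12.9, 14.2, 11.7, 13.4 and 12.8 TPM in controls and 25.3, 22.2, 23.9, 21.8 and 24.3 TPM after UVB. Rats that were high or low for other members were not so for Aurka, and every UVB P1.hMR rat was above every UVB WT rat, as for 1.73% of all genes. Its log2 fold changes were 0.59 (standard error 0.07, limma adjusted p = 4.68e-05) in WT rats and 0.81 (standard error 0.06, adjusted p = 1.47e-07) in P1.hMR, the smallest adjusted p of any member in both comparisons. Nek2, a centrosomal kinase, was called in both genotypes (0.72 and 0.61), Pbk in WT alone (0.64 and 0.49) and Melk in neither (0.53 and 0.38). In WT rats Melk missed the call narrowly (limma adjusted p = 0.0509) and was called under quantile normalization, median-of-ratios scaling, a pseudocount of 0.1 or the replicate block, but without UVB WT rat 1 its value was 0.27. It was also called in WT, at an unchanged fold change, without Control P1.hMR rat 4 or UVB P1.hMR rat 2 or 4. Without UVB WT rat 1 Pbk was at 0.39.

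The chromosomal passenger complex corrects faulty kinetochore attachments and directs cytokinesis. All 4 of its subunits were called higher in WT rats and all but Cdca8 (borealin, 0.35) in P1.hMR. Aurkb, its kinase, was at 11.2, 13.4, 14.4 and 12.1 TPM in Control WT rats and at 25.2, 17.8 and 18.4 TPM in UVB WT rats. In P1.hMR rats Aurkb was at 13.0, 10.6, 14.6, 14.4 and 12.6 TPM in controls and at 17.6, 15.7, 18.4, 22.9 and 22.4 TPM after UVB. Every UVB rat was above every control rat of its genotype. For Aurkb the log2 fold change was 0.63 (standard error 0.14, limma adjusted p = 0.00547) in WT rats and 0.53 (standard error 0.12, adjusted p = 0.00199) in P1.hMR. Aurkb was no longer called in WT without UVB WT rat 1 (0.48), nor in P1.hMR without Control P1.hMR rat 2 (0.46), UVB P1.hMR rat 4 (0.47) or UVB P1.hMR rat 5 (0.48). Incenp, the scaffold of the complex, had the largest log2(TPM + 1) response of all members in P1.hMR rats (0.84, and 0.69 in WT), while its ratio of mean TPM there (1.87) was below that of Cenpe (2.00), and survivin (Birc5) had 0.71 in WT rats and 0.58 in P1.hMR.

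Among the 8 genes of the kinetochore and spindle checkpoint, 4 were called in each genotype, and the responses were uneven. Cenpe, the kinetochore motor that brings chromosomes to the spindle equator, was at 2.69, 2.93, 3.00 and 2.80 TPM in Control WT rats and at 7.06, 5.22 and 5.67 TPM in UVB WT rats. In P1.hMR rats Cenpe was at 3.04, 2.70, 3.19, 3.42 and 3.18 TPM in controls and at 6.92, 4.65, 5.81, 7.01 and 6.63 TPM after UVB. The groups were far apart, with mean TPM 2.10 and 2.00 times as high after UVB, the largest ratio of any member in each genotype, in WT next to 2.09 for Plk1. With a pseudocount of 0.1 the P1.hMR response of Cenpe was 0.96, above that of Incenp (0.90). Its log2 fold changes were 0.85 (standard error 0.12, limma adjusted p = 0.000212) and 0.80 (standard error 0.10, adjusted p = 1.39e-05).

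Bub1, a checkpoint kinase, was at 7.80, 8.91, 7.32 and 6.29 TPM in Control WT rats and at 16.5, 13.8 and 10.4 TPM in UVB WT rats. In P1.hMR rats Bub1 was at 8.64, 7.54, 8.09, 7.13 and 7.14 TPM in controls and at 13.1, 12.3, 12.6, 13.7 and 15.3 TPM after UVB. No UVB rat fell among the controls, and the log2 fold changes of 0.75 and 0.72 were nearly equal in the genotypes. Ndc80, a subunit of the complex that binds microtubules at the kinetochore, responded by 0.69 and 0.67 and was called in both. Of its partners in that complex, Nuf2 was called in WT alone (0.74 and 0.45) and Spc25 in neither (0.31 and 0.42). In P1.hMR rats both were under the fold threshold, with limma adjusted p = 0.00697 and 0.0287, and no difference from Ndc80 was tested. The checkpoint kinase Ttk was called in P1.hMR alone (0.48 and 0.74), and Bub1b (0.48 and 0.44) and Cenpf (0.42 and 0.16) in neither.

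The 3 members that act with the anaphase-promoting complex or cut cohesin were all called in WT rats, and Ube2c alone was called in P1.hMR rats. Cdc20, the activator of the complex, was at 19.8, 21.1, 24.2 and 18.2 TPM in Control WT rats and at 48.6, 34.0 and 31.4 TPM in UVB WT rats. In P1.hMR rats Cdc20 was at 25.1, 18.9, 27.7, 25.1 and 24.8 TPM in controls and at 37.0, 23.8, 32.5, 41.1 and 38.9 TPM after UVB. The WT groups were apart and the P1.hMR groups overlapped through UVB P1.hMR rat 2. For Cdc20 the log2 fold change was 0.82 (standard error 0.17, limma adjusted p = 0.0039) in WT rats and 0.48 (standard error 0.14, adjusted p = 0.0148) in P1.hMR, where it missed the fold threshold. Without UVB P1.hMR rat 2 (0.60) or Control P1.hMR rat 3 (0.53) it was called. Ube2c responded by 0.78 and 0.80, and separase (Espl1), the protease that opens cohesin, by 0.58 and 0.38.

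Among the 8 spindle motors and microtubule proteins, 6 were called in WT rats and 4 in P1.hMR. Kif11, the motor that pushes the spindle poles apart, was at 7.67, 8.78, 9.45 and 7.92 TPM in Control WT rats and at 14.4, 9.94 and 11.01 TPM in UVB WT rats. In P1.hMR rats Kif11 was at 9.08, 7.16, 8.69, 9.29 and 7.96 TPM in controls and at 12.4, 10.7, 11.5, 14.6 and 13.2 TPM after UVB. The groups did not overlap in either genotype. Its log2 fold change of 0.42 in WT (standard error 0.12, limma adjusted p = 0.0198) was under the fold threshold, and that of 0.52 in P1.hMR rats (standard error 0.10, adjusted p = 0.000745) was above it. Without UVB WT rat 2 the WT value was 0.53 and called, and without Control P1.hMR rat 2 or 5, or UVB P1.hMR rat 4 or 5, the P1.hMR value was between 0.46 and 0.50 and not called. Tpx2, which activates Aurka on the spindle (0.83 and 0.59), Kif2c, a motor that takes microtubules apart (0.75 and 0.69), and Hmmr (0.63 and 0.55) were called in both genotypes, and Dlgap5, Aspm and Ckap2 in WT alone.

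Nusap1, which bundles spindle microtubules, had the smallest response of all members when the genotypes were averaged. It was at 16.6, 17.7, 21.0 and 17.5 TPM in Control WT rats and at 28.7, 18.2 and 19.4 TPM in UVB WT rats. In P1.hMR rats Nusap1 was at 19.9, 13.98, 22.2, 22.2 and 18.1 TPM in controls and at 24.4, 18.2, 18.1, 21.8 and 21.6 TPM after UVB. The groups overlapped in both genotypes, and only UVB WT rat 1 and UVB P1.hMR rat 1 exceeded every control of their genotype. The log2 fold change was 0.25 (95% interval -0.09 to 0.58) in WT rats and 0.12 (95% interval -0.16 to 0.40) in P1.hMR, with limma adjusted p = 0.293 and 0.517.

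Of the 7 genes of the central spindle and cytokinesis, 6 were called in WT rats and 3 in P1.hMR. Prc1, which bundles the microtubules of the central spindle, was at 13.2, 16.2, 19.1 and 13.9 TPM in Control WT rats and at 31.3, 20.9 and 22.7 TPM in UVB WT rats. In P1.hMR rats Prc1 was at 16.7, 14.4, 17.9, 18.6 and 16.9 TPM in controls and at 23.9, 18.7, 22.2, 26.6 and 26.04 TPM after UVB. The groups were apart in both genotypes, in P1.hMR by the narrow gap between 18.6 and 18.7 TPM. The log2 fold change was 0.64 (standard error 0.15, limma adjusted p = 0.00607) in WT rats and 0.45 (standard error 0.12, adjusted p = 0.00784) in P1.hMR. Prc1 was not called in WT without UVB WT rat 1 (0.47), and it was called in P1.hMR without UVB P1.hMR rat 2 (0.52). Ect2, which turns on RhoA for the contractile ring (0.52 and 0.58), and the motors Kif4a (0.59 and 0.55) and Kif20a (0.69 and 0.54) were called in both genotypes. Ect2 was not called in WT without UVB WT rat 1 (0.38) or Control WT rat 4 (0.48), nor was Kif4a without UVB WT rat 1 (0.41). In P1.hMR rats Kif4a lost its call without Control P1.hMR rat 2 (0.50), and Kif20a without Control P1.hMR rat 2 or UVB P1.hMR rat 4 (0.47 each). Anillin (Anln) and Racgap1 were called in WT alone, and Kif23, the partner of Racgap1 in centralspindlin, in neither (0.47 and 0.32).

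Genes of chromosome structure had the lowest median responses of the role groups. Of the 6, 2 were called in each genotype, with median log2 fold changes of 0.46 in WT rats and 0.44 in P1.hMR. Top2a, the topoisomerase that untangles sister chromatids, was at 15.1, 20.1, 20.1 and 16.7 TPM in Control WT rats and at 34.2, 21.4 and 22.0 TPM in UVB WT rats. In P1.hMR rats Top2a was at 19.8, 14.6, 20.2, 21.1 and 18.9 TPM in controls and at 25.5, 20.8, 25.1, 28.4 and 26.8 TPM after UVB. Apart from UVB WT rat 1, the irradiated WT rats were only just above the controls. The log2 fold changes of 0.48 and 0.40 missed the fold threshold with limma adjusted p = 0.0373 and 0.0201, and in WT Top2a was called without UVB WT rat 2 (0.59), UVB WT rat 3 (0.57), Control WT rat 2 (0.53) or Control WT rat 3 (0.53). Without UVB WT rat 1 the WT value of Top2a was 0.27.

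Mki67 encodes Ki-67, the protein that coats mitotic chromosomes and is widely used as a stain for cycling cells. It was at 14.3, 17.2, 18.03 and 16.9 TPM in Control WT rats and at 28.4, 21.1 and 18.5 TPM in UVB WT rats. In P1.hMR rats Mki67 was at 18.3, 14.3, 19.7, 19.6 and 16.9 TPM in controls and at 20.5, 15.2, 19.5, 25.2 and 22.4 TPM after UVB. The WT groups did not overlap, by the gap between 18.03 and 18.47 TPM, and the P1.hMR groups did. The log2 fold change was 0.41 (95% interval 0.08 to 0.74) in WT rats and 0.19 (95% interval -0.08 to 0.46) in P1.hMR, and neither passed the test (limma adjusted p = 0.0703 and 0.251). Without UVB WT rat 3 the WT value was 0.54 and called, and without UVB WT rat 1 it was 0.24.

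The ratio of Plk1 to Mki67 TPM in each rat, a pair picked after their values were seen for their unequal responses, lay between 0.553 and 0.696 in the 9 control rats. It lay between 0.806 and 1.037 in the 8 UVB rats of both genotypes. Since the pair was chosen for this contrast, the ratio is a description only.

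The condensin subunits split. Smc4 was at 23.1, 20.8, 24.9 and 21.7 TPM in Control WT rats and at 27.7, 24.6 and 26.7 TPM in UVB WT rats. In P1.hMR rats Smc4 was at 23.2, 21.4, 24.3, 23.9 and 23.9 TPM in controls and at 27.97, 29.6, 24.5, 31.8 and 28.5 TPM after UVB. Its values were tight in every group, and the shift was small in both genotypes. The log2 fold change of Smc4 was 0.21 (standard error 0.08, limma adjusted p = 0.0646) in WT rats and 0.27 (standard error 0.06, adjusted p = 0.00351) in P1.hMR. Its partner Smc2 responded by 0.44 and 0.57, and the condensin I subunits Ncapg by 0.56 and 0.65 and Ncaph by 0.54 and 0.48.

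**Figure D4:**
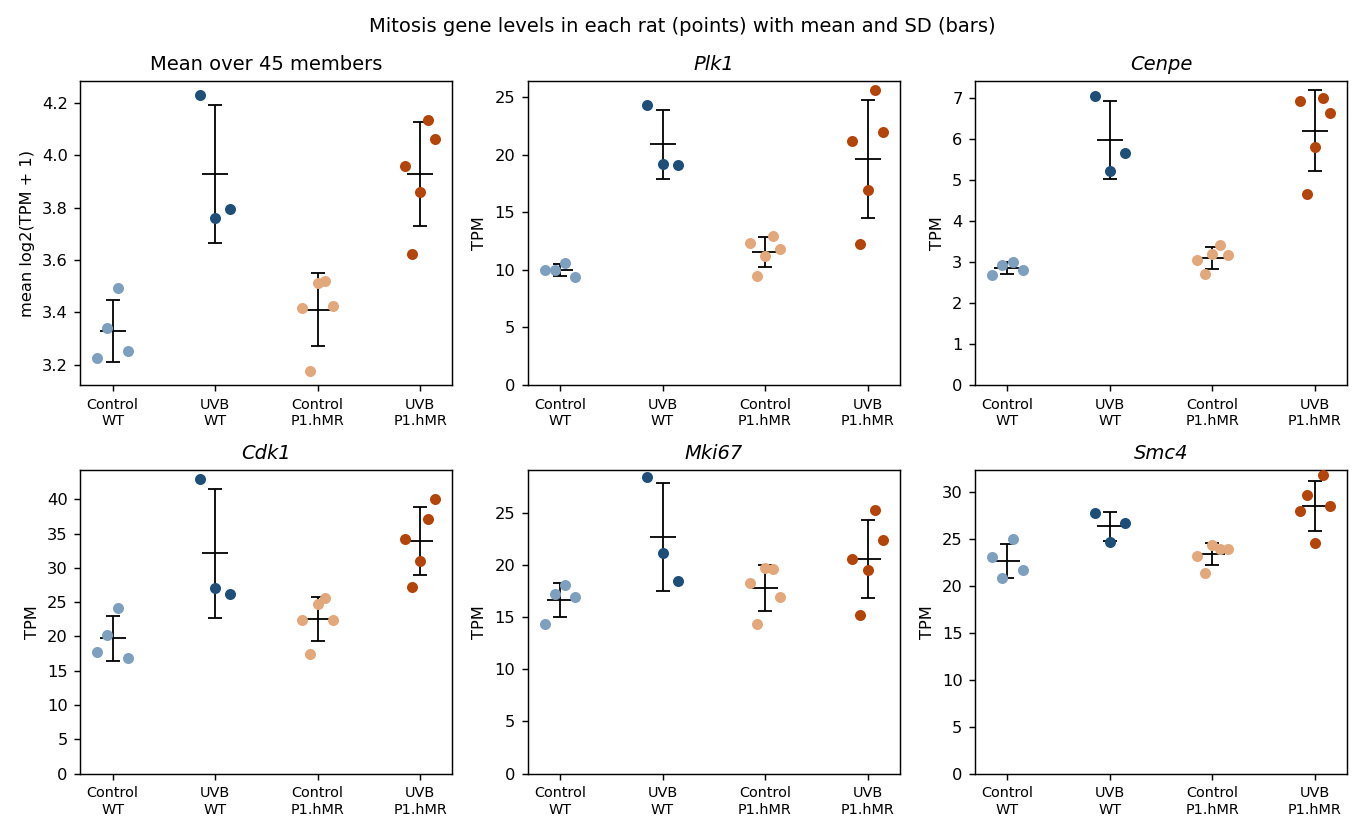
Points are single rats (4 Control WT, 3 UVB WT, 5 Control P1.hMR and 5 UVB P1.hMR), horizontal ticks the group means and whiskers the SD, for the mean of log2(TPM + 1) over the 45 members and for the TPM of 5 members. Plk1 and Cenpe part irradiated WT rats widely from their controls, whereas Mki67 and Smc4 shift little and UVB WT rat 1 is the highest point of its group in all panels.

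The next comparison asked whether the MR transgene altered these genes. Under UVB, 0 of 45 members were called between P1.hMR and WT rats, beside 0.0229% of all genes, and 1 member, Aurka, had an unadjusted p under 0.05 in limma, beside 10.3% of all genes. The median log2 difference was -0.01, from -0.15 for Nuf2 to 0.25 for Ttk. Aurka was higher in P1.hMR rats by 0.21 (95% interval 0.07 to 0.35, limma adjusted p = 0.286). For Mki67 the difference was -0.13 (95% interval -0.44 to 0.18) and for Cdk1 0.10 (95% interval -0.25 to 0.45), so differences of such sizes could not be detected. UVB WT rat 1 set much of this comparison, since without it the median difference was 0.14.

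Without UVB, 0 members were called between the genotypes and 0 had an unadjusted p under 0.05, beside 0.00763% and 4.03% of all genes. The members leaned 1 way, as 40 of 45 had a higher mean in Control P1.hMR rats, beside 48.9% of all genes, with a median log2 difference of 0.07 from -0.07 for Incenp to 0.21 for Cdc20. With each rat left out in turn the median lay between 0.04 and 0.14. For Mki67 the difference was 0.09 (95% interval -0.20 to 0.37) and for Plk1 0.19 (95% interval -0.13 to 0.51). Because the members share the level of each rat, their common lean is not 40 separate findings.

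The interaction of genotype and UVB tested whether the responses differed. It called 0 of 45 members and 0% of all genes, and 1 member, again Aurka, had an unadjusted p under 0.05 in limma, beside 6.92% of all genes. The response was nominally larger in WT rats for 35 members and in P1.hMR rats for 10, with a median difference of -0.09 on the log2 scale that became 0.06 without UVB WT rat 1. It ran from -0.34 for Cdc20 (95% interval -0.82 to 0.14) to 0.26 for Ttk (95% interval -0.17 to 0.69). For Aurka the response was larger in P1.hMR rats by 0.21 (95% interval 0.03 to 0.40, limma adjusted p = 0.711). The calls made in WT alone or in P1.hMR alone are therefore not shown to differ between the genotypes.

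Genes around the members in the cell cycle were then described from lists written by role. For comparison, 3.92% of all genes were called higher and 3.98% lower in WT rats, and 5.05% and 5.71% in P1.hMR. Of 48 other genes of mitosis that were tested, 19 were called higher in WT rats and 17 in P1.hMR and 0 lower, with median log2 fold changes of 0.45 and 0.42. Among these, Kif22, a motor that binds chromosome arms, responded by 1.05 and 0.84, Cdca5, which guards cohesin, by 0.71 and 0.89, and Cep55, which acts in the final cut of cytokinesis, by 0.79 and 0.85. The core subunits of the anaphase-promoting complex, whose transcripts are not known for a G2 and M phase peak, were not called, 0 of 13 in either genotype, with medians of -0.02 and 0.01. Of these, 2 of 13 in WT rats and 4 of 13 in P1.hMR had an unadjusted p under 0.05 in limma, beside 35.3% and 47.6% of all genes. Of 30 DNA replication genes, 4 were called higher in WT rats and 7 in P1.hMR, with medians of 0.23 and 0.35. Rrm2, a subunit of the enzyme that makes deoxyribonucleotides, rose most among them. Its mean was 14.1 ± 2.33 TPM in Control WT (SD, n = 4), 36.5 ± 3.95 TPM in UVB WT (SD, n = 3), 13.3 ± 1.73 TPM in Control P1.hMR and 40.9 ± 7.06 TPM in UVB P1.hMR rats (SD, n = 5 each). Orc1, of the origin recognition complex, and Mcm5, of the replicative helicase, were also called in both genotypes. Mcm5 was not called in WT without UVB WT rat 1 (0.50).

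**Figure D5:**
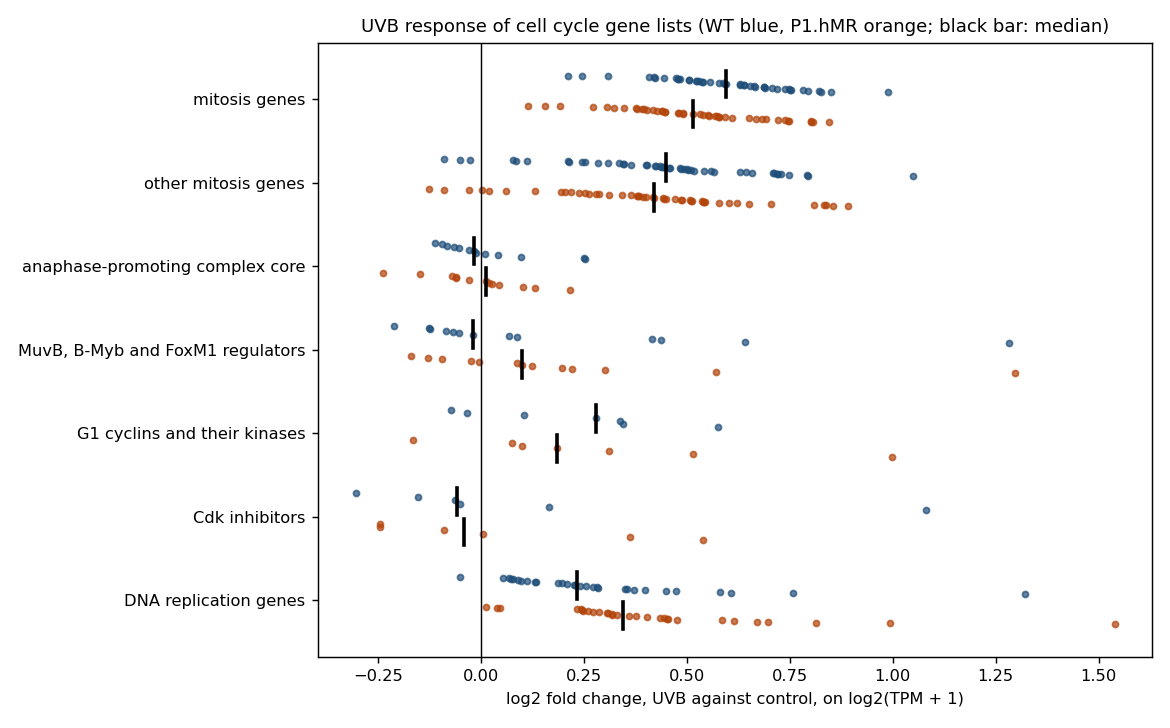
Points are genes of 7 cell cycle lists and black bars the list medians, plotted by log2 fold change after UVB in WT (blue) and P1.hMR rats (orange). The 45 mitosis genes (medians 0.60 and 0.52) and the other genes of mitosis (0.45 and 0.42) lie to the right, the core of the anaphase-promoting complex lies around 0, and Mybl2 is the point farthest to the right among the regulators.

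Of the 13 genes for MuvB, its partners and NF-Y, B-Myb (Mybl2) was called in both genotypes, Lin37 in WT alone and Tfdp1 in P1.hMR alone. Mybl2 was at 3.13, 2.65, 3.18 and 2.06 TPM in Control WT rats and at 8.91, 6.84 and 8.56 TPM in UVB WT rats. In P1.hMR rats Mybl2 was at 2.88, 2.36, 2.96, 3.03 and 3.02 TPM in controls and at 6.98, 5.78, 9.40, 10.2 and 10.9 TPM after UVB. The groups were far apart, and the log2 fold changes of 1.28 and 1.30 were larger than those of any of the 45 members. FoxM1 (Foxm1) ranged from 3.26 to 4.35 TPM in Control WT and from 4.84 to 5.76 TPM in UVB WT rats. In P1.hMR rats Foxm1 ranged from 3.16 to 4.99 TPM in controls and from 3.67 to 6.45 TPM after UVB, and it was not called in either genotype (0.41 and 0.30, limma adjusted p = 0.0514 and 0.057). Lin37 was at 13.2, 12.0 and 13.2 TPM in Control WT rats 1 to 3 and between 20.8 and 28.8 TPM in Control WT rat 4 and all other rats, so its call in WT turns on those 3 controls. It was also not called in WT without UVB WT rat 2 (0.56) or with only the WT groups in the fit (0.64).

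Among the genes that gate the earlier cell cycle, cyclin E1 (Ccne1), which drives entry into S phase, was called in both genotypes (0.58 and 1.00). Of the 6 Cdk inhibitors tested, Cdkn1c (p57) alone was called. Its mean was 7.02 ± 0.936 TPM in Control WT (SD, n = 4), 15.9 ± 2.08 TPM in UVB WT (SD, n = 3), 9.15 ± 1.11 TPM in Control P1.hMR and 13.8 ± 2.42 TPM in UVB P1.hMR rats (SD, n = 5 each). In P1.hMR rats Cdkn1c was not called without Control P1.hMR rat 3 (0.49) or UVB P1.hMR rat 2 (0.45). Cdkn1b (p27) had log2 fold changes of -0.30 and -0.25 and Cdkn1a (p21) of 0.16 and 0.36, all under the fold threshold.

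Markers of the cell types in the gland were set beside the result, and their part in the rise of the mitosis genes was not tested. The counts called in each marker list stand beside the shares of all genes. These were 3.92% called higher and 3.98% lower in WT rats, and 5.05% and 5.71% in P1.hMR. Of the 6 basal epithelial markers listed, 0 were called in either genotype in limma, and 3 in WT rats and 4 in P1.hMR had an unadjusted p under 0.05, beside 35.3% and 47.6% of all genes. Their sum was 8068 to 10283 TPM in Control WT, 8732 to 9978 in Control P1.hMR, 10538 to 11640 in UVB WT and 8342 to 13402 TPM in UVB P1.hMR rats. Rat by rat, the sums and the mitosis genes matched in part. In UVB WT rats 1 to 3 the basal sums were 11640, 10538 and 11420 TPM and the sums of the 45 members 937, 669 and 673 TPM. In UVB P1.hMR rats 1 to 5 they were 10522, 8342, 11458, 12254.5 and 13402 TPM and 770.04, 594, 708, 873 and 832 TPM. Rat 2 was thus lowest in both, whereas the highest basal sum was in rat 5 and the highest sum of members in rat 4. Control P1.hMR rat 2, lowest for 40 members, had a basal sum of 9361 TPM, above the median of its group (9231 TPM). Control WT rat 4, with the highest basal sum of its group, was lowest for 15 members. Control WT rat 1 had the lowest basal sum of its group and was lowest for 27 members. Control P1.hMR rat 4 had the highest basal sum of its group (9978 TPM) and the highest sum of members (556 TPM). The keratin Krt14 had log2 fold changes of 0.48 and 0.50 and its partner Krt5 of -0.01 and -0.16.

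The summed meibocyte markers were between 16976 and 17935 TPM in UVB WT and between 15801 and 18732 TPM in UVB P1.hMR rats, against 20486 to 24323 and 18588 to 21770 TPM in controls. Of these 9 markers, 1 was called higher (Elovl3) and 1 lower (Awat2) in each genotype. Of the 6 spinous and wound keratinocyte markers, 1 was called higher in each genotype, Sprr1b of the cornified envelope (3.66 and 4.17), and 1 lower, Ivl (-1.37 and -1.25), with sums of 3764 to 4454 TPM in Control WT, 3276 to 4027 in Control P1.hMR, 3775 to 5949 in UVB WT and 4007 to 4753 TPM in UVB P1.hMR rats. Of the 11 markers of the hair matrix and hair keratins, 7 were called lower in WT rats and 5 in P1.hMR, and 0 higher.

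Of the 8 macrophage markers, 4 were called higher in each genotype, with sums of 77.5 to 144 TPM in Control WT, 82.0 to 142 in Control P1.hMR, 111 to 197 in UVB WT and 147 to 226 TPM in UVB P1.hMR rats. Of the 4 T cell markers tested, 2 were called higher in each genotype, and the sums of the list stayed at or under 14.2 TPM in every rat. Both B and plasma cell markers that were tested had an unadjusted p above 0.05 in limma, while 35.3% of all genes in WT rats and 47.6% in P1.hMR were under it. Of the 6 fibroblast markers, 3 were called higher in each genotype, among them Lum (1.89 and 1.88), and 1 lower, Postn in WT (-0.52) and Col1a1 in P1.hMR rats (-0.86), with sums of 989 to 1499 TPM in Control WT, 1403 to 1621 in Control P1.hMR, 1238 to 1975 in UVB WT and 1327 to 1815 TPM in UVB P1.hMR rats. Postn and Col1a1 each also had a negative fold change in the other genotype, where they were not called. Of the 5 endothelial markers, Vwf alone was called, higher in each genotype (0.70 and 0.55). Of the 5 melanocyte markers, 3 were called lower in WT rats and 0 in P1.hMR, where 3 had an unadjusted p under 0.05 in limma, beside 47.6% of all genes. Their sums were 74.8 to 137 TPM in Control WT, 89.96 to 136 in Control P1.hMR, 56.7 to 66.1 in UVB WT and 75.9 to 130.22 TPM in UVB P1.hMR rats. Of the 6 skeletal muscle markers, 0 were called and 1 in each genotype, Ckm, had an unadjusted p under 0.05 in limma, beside 35.3% and 47.6% of all genes.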

How the data were processed

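TPM for 17251 genes in 17 rats were deposited by the authors, written with 2 decimals and a decimal comma. The paper's methods name FastQC, STAR, the build rn7 and RSEM, whereas the submitters' processing notes name FastQC, Trimmomatic, DRAGEN and Picard with rn7. Which of these made the values is not given in the sources used here. TPM hold no counts, so the authors' DESeq2 test was not repeated. The paper gives a range of mapped reads, but the depth of each library is unknown.

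Rats were grouped by their labels. The log2(TPM + 1) of 13105 genes, those that reached 1 TPM in 3 or more rats, was fitted with limma 3.58.1 in R 4.3.3, with a mean per group, a variance trend and two-sided moderated tests. Genes were called where p, after Benjamini-Hochberg adjustment, was under 0.05 and the log2 fold change was 0.5 or more in size. The fit was run on simulated data with genes drawn independently and with changes larger than that of any member. That run could not show how changes of the members' size, or genes that share the level of a rat, are handled. Each label is 1 rat, so p-values measure the spread between rats. No libraries held identical values. Motifs were counted in Python 3.11.15 with pandas 2.3.3, and figures drawn with matplotlib 3.10.9.

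The members, role groups, pathway and marker lists were chosen with earlier results of these data known. Values in every rat were given for the first member of each role group, Mki67, and the 2 members with the largest and the 2 with the smallest mean UVB response. Aurka, Mybl2, Foxm1 and Lin37 were given in more detail after their values were seen. The alternatives were another pseudocount (0.1), quantile normalization, scaling by median ratios, every gene above 0, genes with a mean of 5 TPM or more, rescaling without muscle and hair keratin genes, only the groups compared, no variance trend, array weights, a replicate block, no fold threshold, a log2 fold threshold of 1, and leaving out each rat. The same alternatives for pathway genes were added after their values were seen.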

Additional observations from a re-analysis of the deposited data

Results flagged for a closer look

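In groups of 4 or 5 rats, a rat was taken to stand apart where its gap to the nearest rat, divided by the range of the group, passed Dixon's 95% limit. Gaps and ranges were taken on log2(TPM + 1), so the gap shares below do not follow directly from the TPM beside them. Of 138 sets of values tested (the 45 members and their mean in 3 groups), 9 passed, and about 1 in 20 does so by chance. Control P1.hMR rat 2 was low for 5 of them. Bub1b was at 3.97 TPM against 5.15 to 5.6 TPM in the other rats (gap share 0.751), Ttk at 3.32 against 5.02 to 5.67 TPM (0.764), and Espl1 at 3.61 against 4.82 to 5.22 TPM (0.778). Dlgap5 was at 6.74 against 8.84 to 9.79 TPM (0.723) and Ncaph at 9.02 against 11.95 to 13.14 TPM (0.745). UVB P1.hMR rat 2 was low for Cdca3, at 16.8 against 23.6 to 27.0 TPM (0.72), and for Nek2, at 7.33 against 11.3 to 11.8 TPM (0.904). Smc2 was low in Control WT rat 4, at 6.86 against 8.46 to 8.80 TPM (0.84), and Incenp high in Control P1.hMR rat 4, at 13.5 against 10.3 to 11.1 TPM (0.727). The 2 rats numbered 2 were also low for most other members.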

How the results depend on the processing

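Every member tested had a positive log2 fold change in both UVB comparisons under every alternative run, and 0 changed sign. All 45 were tested each time, except with genes of a mean of 5 TPM or more, where 39 were tested. With the fold threshold raised to a log2 fold change of 1, 0 members were called in either genotype (0 and 0), and with no fold threshold 39 were called in P1.hMR. Leaving out 1 rat at a time, the members called ranged from 18 to 39 in WT rats and from 18 to 31 in P1.hMR. Median log2 fold changes ranged from 0.45 to 0.71 in WT, from 0.46 to 0.60 in P1.hMR, from -0.10 to 0.14 between genotypes under UVB, from 0.04 to 0.14 without UVB and from -0.19 to 0.06 for the interaction. Calls of members between genotypes and for the interaction were 0 under every alternative run. For single genes, 2048 of 2165 alternative values kept their direction and call, 59 lost the call, 58 gained it and 0 reversed. These counts leave out fits without a rat of the other genotype. Such a rat cannot move a fold change, but it can move a call through the shared estimate of the spread. Melk in WT gained its call in this way without Control P1.hMR rat 4 or UVB P1.hMR rat 2 or 4. No scaling moved the median of all genes by over 0.1 on the log2 scale. Rats of the same number in 2 groups did not deviate together in every pair (residual correlations from -0.187 to 0.235), so the numbers were not taken as pairs, and with the replicate number as a block 38 members were called in WT rats and 23 in P1.hMR. Between the 2 control groups, however, every such correlation was positive (0.042 to 0.235), while each other comparison held both signs. The depth of each library is unknown, so no counting error could be given.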
